A study of Mus musculus with 2 samples.

Results

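The trans-synaptic adhesion genes described here are the neurexins Nrxn2 and Nrxn3, the neuroligins Nlgn1 and Nlgn2, and the leucine-rich repeat transmembrane genes Lrrtm1, Lrrtm2, Lrrtm3 and Lrrtm4. They were chosen by name, as 9 genes of the neurexin, neuroligin and Lrrtm families. Of these, 8 were read from a table of 30223 genes, and the other was not analysed here. Transcripts of single hippocampal cells were compared between wild-type mice and mice homozygous for the knock-in allele Pigv341E, both of strain C57Bl.6/J. Pigv encodes an enzyme that builds the glycosylphosphatidylinositol (GPI) anchor, by which many proteins are held at the cell surface. For each genotype, 8 hippocampi of 4 mice were pooled into 1 library, and the age and sex of the mice were not given in the labels. With 1 library per genotype, genotype cannot be told apart from library, no difference between the libraries could be tested, and every interval covers counting error only.

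Neurexins are single-pass membrane proteins of the presynaptic terminal. Across the cleft they bind neuroligins and Lrrtm proteins, which stand in the postsynaptic membrane and recruit scaffolds and receptors there. Nlgn1 is known mainly from excitatory synapses and Nlgn2 from inhibitory ones, and the Lrrtm proteins act at excitatory synapses, with Lrrtm4 prominent in the dentate gyrus. GPI-anchored proteins bear on these pairs from outside: Mdga proteins bind neuroligins and hinder their pairing with neurexins, and the glypican Gpc4 binds Lrrtm4.

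There were 7094 wild-type and 8836 knock-in cells. The deposited values are whole numbers, treated here as corrected for sequencing depth, with totals per cell of 4846 to 13545 for wild-type and 5851 to 14501 for knock-in cells. The sequencing depth of single cells was therefore taken as unknown. The median cell had 3122 (wild-type) or 3736 (knock-in) genes above 0, and 28 cell barcodes occurred in both. A level is a gene's share of all values in the cells concerned, per 10000, and paired levels are given for the wild-type library first. A log2 ratio compares the knock-in with the wild-type level after 0.1 is added to each, so ratios of sparse genes come out too small. Pigv was at 0.0886 and 0.1004 per 10000, so its transcript level did not tell the genotypes apart. Abl1, a kinase named in the study's title, was at 8.995 and 1.29. Clustering gave 36 clusters, 25 of them named from marker genes as 14 cell classes, of which 11 had at least 50 cells in each library. The names rest on markers alone and stand for cells that are like the class.

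Promoter windows are shown for Lrrtm4 and Lrrtm3, the members whose levels set neuronal clusters farthest apart. Each window runs from 250 bases before to 50 bases after a transcript start in RefSeq on GRCm38.p6, 5′ to 3′ on the gene's strand. Capitals mark matches, on either strand, to a TATA box (TATAAA, or TTTATA where it lies on the other strand) or an E-box (CAGCTG, which reads alike on both strands). The Lrrtm4 window is chr6:80018627-80018926 on the plus strand, and the Lrrtm3 window is chr10:64090206-64090505 on the minus strand.
Lrrtm4: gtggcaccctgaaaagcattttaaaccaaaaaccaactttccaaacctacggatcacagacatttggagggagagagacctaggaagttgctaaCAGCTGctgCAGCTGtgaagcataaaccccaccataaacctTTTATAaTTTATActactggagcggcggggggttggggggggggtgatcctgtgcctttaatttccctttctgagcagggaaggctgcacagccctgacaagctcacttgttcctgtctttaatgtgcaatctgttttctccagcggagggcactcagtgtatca
Lrrtm3: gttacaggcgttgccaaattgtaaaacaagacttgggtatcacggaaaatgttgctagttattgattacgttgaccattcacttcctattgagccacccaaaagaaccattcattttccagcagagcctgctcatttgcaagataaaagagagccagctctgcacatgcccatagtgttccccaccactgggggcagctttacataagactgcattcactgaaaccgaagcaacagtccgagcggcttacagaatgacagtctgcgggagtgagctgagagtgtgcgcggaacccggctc
For Lrrtm4 the table holds a further start, whose window (chr6:80019393-80019692, plus strand) is not shown and had 1 E-box and 0 TATA box matches and 53.3% G and C. The Lrrtm4 window shown held 2 E-box and 2 TATA box matches. The Lrrtm3 window held neither, and no match to a GC box (GGGCGG) or a CRE (TGACGTCA). Of 32817 windows of this length, 16.3% held the E-box letters, 13.6% the TATA box, 35.6% the GC box and 1.79% the CRE. Both windows shown were 48.7% G and C, against a median of 52.7% over all windows. A match is a string of letters only, and binding was not measured.

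In both libraries the 8 genes fell into an abundant and a sparse set. Over all cells, Nrxn3 was at 23.7 and 20.5 per 10000, Nlgn1 at 24.1 and 22.8, and Lrrtm4 at 26.6 and 22.0. The other members lay between 0.117 and 0.572. The abundant genes are also long: Nrxn3 spans 1612 kb (chromosome 12, 88722876 to 90334935, plus strand, GENCODE M21 on GRCm38), Nlgn1 906 kb (chromosome 3, 25426215 to 26332460, minus strand) and Lrrtm4 791 kb (chromosome 6, 80018877 to 80810143, plus strand). Nlgn2 spans 14.7 kb (chromosome 11, 69823122 to 69837784, minus strand). Per 100 kb of gene, the level was highest for Lrrtm4, at 3.36 and 2.78, followed by Nlgn1 at 2.66 and 2.51 and Lrrtm2 at 1.95 and 2.47. Nlgn2 was at 1.60 and 1.87, Nrxn3 at 1.47 and 1.27, and Lrrtm1 at 1.45 and 1.71. The lowest levels per 100 kb were 0.426 and 0.456 for Nrxn2 and 0.194 and 0.261 for Lrrtm3.

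**Figure D1:**
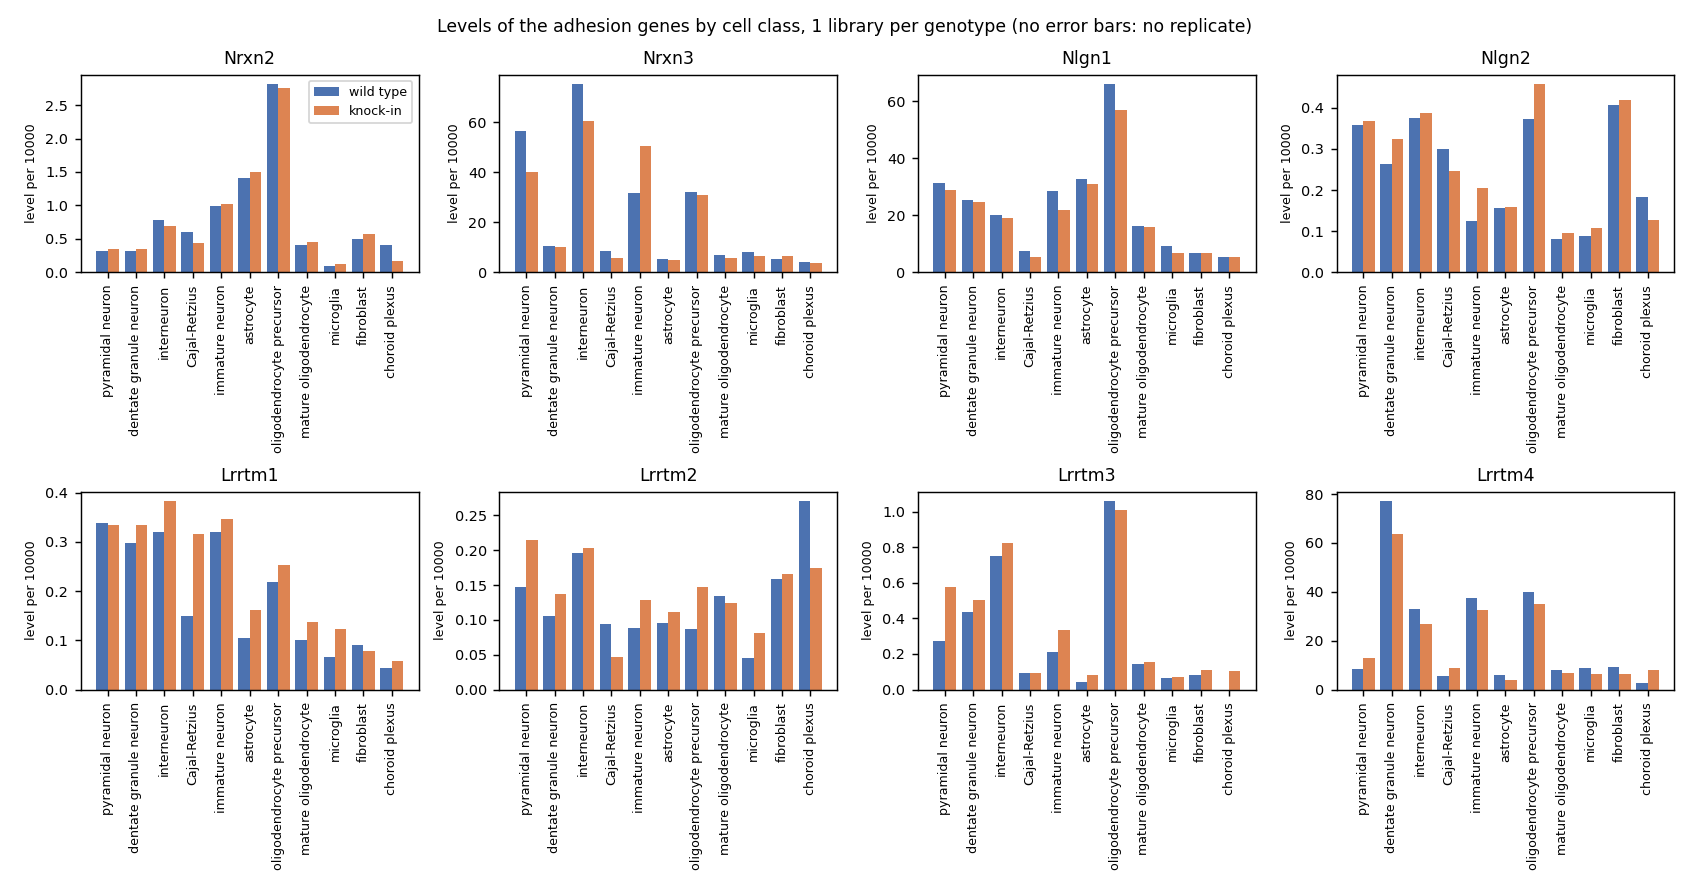
Level per 10000 (y axis, linear, from 0, scaled for each gene) of the 8 adhesion genes in 11 cell classes (x axis). Blue bars are the wild-type and orange bars the knock-in library, with 1 pooled library each and hence no error bars. Nrxn3 is highest in interneurons (75.3 and 60.7), Nlgn1 in oligodendrocyte precursors (66.1 and 56.8) and Lrrtm4 in dentate granule neurons (77.1 and 63.5).

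Nrxn3, a neurexin with both long and short isoforms, was highest in interneuron-like cells, at 75.3 and 60.7 per 10000. Pyramidal neuron-like cells followed at 56.4 and 40.1, immature neuron-like cells at 31.5 and 50.7, and oligodendrocyte precursor-like cells at 32.1 and 30.9. Dentate granule neuron-like cells had 10.5 and 9.93, above the 3.86 to 8.59 of all 6 other classes. The interneuron class stood apart from the rest in both libraries, with a mean level 17.0-fold that of choroid plexus-like cells. The spans between the libraries overlapped for pyramidal and immature neurons, and for immature neurons and precursors, so these neighbours were not separated, while pyramidal neurons stood above precursors in both libraries. Granule neurons were in turn separated from the precursors above them and the microglia-like cells below them. Over 10 pairs of neighbouring classes, 5 were not separated.

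Nrxn2, the other neurexin, was highest in oligodendrocyte precursors, at 2.82 and 2.76, and next in astrocyte-like cells, at 1.41 and 1.51. Immature neurons had 0.995 and 1.02 and interneurons 0.775 and 0.684, while pyramidal neurons had 0.324 and 0.346 and granule neurons 0.318 and 0.341. Mature oligodendrocyte-like cells had 0.412 and 0.450. The 4 highest classes were each separated from the next. Microglia were lowest, at 0.0933 and 0.123, so that precursors had 25.7-fold the microglial level on average. Nrxn2 (chromosome 19, 6418731 to 6544169, plus strand) overlaps Slc22a12 on the opposite strand, and the strand setting of the counting is not given in the sources used here.

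Among neuroligins, Nlgn1 was highest in oligodendrocyte precursors, at 66.1 and 56.8 per 10000, above every neuronal class. Astrocytes had 32.6 and 31.0, pyramidal neurons 31.4 and 28.7, granule neurons 25.4 and 24.6, and interneurons 20.3 and 19.1. Astrocytes and pyramidal neurons were not separated. Choroid plexus cells were lowest, at 5.42 and 5.22, and precursors had 11.6-fold this level on average. With every cell reduced at random to a total of 1000, all wild-type precursors (exact 95% interval from 98.3% upwards) and 99.0% of knock-in precursors (97.1 to 99.8%) had Nlgn1 above 0. The same shares in microglia were 48.7% (44.9 to 52.6%) and 39.8% (36.5 to 43.2%).

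Nlgn2 was sparse in every class, between 0.0806 and 0.458 per 10000. Oligodendrocyte precursors (0.374 and 0.458) and fibroblast-like cells (0.407 and 0.420) led and were not separated from each other. Interneurons had 0.375 and 0.387, pyramidal neurons 0.358 and 0.368, and mature oligodendrocytes 0.0806 and 0.0963. Much of the signal of Nlgn2 consisted of single units, which after depth correction need not be observed molecules: with values of 1 set to 0, its level over all cells was 0.0886 and 0.0970 instead of 0.234 and 0.274.

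Lrrtm4 was the most dentate of the members. Dentate granule neurons had 77.1 and 63.5 per 10000 and were separated from every other class. Oligodendrocyte precursors (39.9 and 35.0), immature neurons (37.4 and 32.5) and interneurons (33.0 and 26.9) formed a second group whose neighbours were not separated. Pyramidal neurons had 8.20 and 12.96 and were not separated from fibroblasts. Lrrtm4 was above 0 in every granule neuron of the largest cluster in both libraries, where the median cell had 3889 and 4167 genes above 0. In the P2ry12 cluster of microglia it was above 0 in 71.4% and 68.4% of cells (medians of 3505 and 3798 genes), at 2.86 and 3.13 per 10000. There Nrxn3 was at 2.43 and 2.19 and Nlgn1 at 2.65 and 2.68. Free RNA was not measured, and its part in such low levels was not tested.

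Lrrtm3 (chromosome 10, 63928472 to 64090277, minus strand) was highest in oligodendrocyte precursors, at 1.06 and 1.01, and next in interneurons, at 0.750 and 0.824. Granule neurons had 0.435 and 0.501 and pyramidal neurons 0.275 and 0.574. Mature oligodendrocytes had 0.143 and 0.156, and in wild-type choroid plexus cells it was listed at 0. Lrrtm1 (chromosome 6, 77242689 to 77257791, plus strand) was between 0.297 and 0.383 in interneurons, pyramidal, immature and granule neurons, with neighbours in this order not separated. Lrrtm2 (chromosome 18, 35209003 to 35215024, minus strand) lay between 0.0457 and 0.270 in all 11 classes, with 8 of 10 neighbouring pairs not separated. With values of 1 set to 0, Lrrtm1 was at 0.0850 and 0.0855 and Lrrtm2 at 0.0442 and 0.0454 over all cells, so little can be said of their cell types at this depth.

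Within the neuronal classes the abundant genes and Lrrtm3 marked different clusters. Taken were the 12 clusters with at least 50 cells in each library whose best marker list was that of pyramidal, granule or interneurons, 4 of which stayed unnamed. The clusters of immature neurons and Cajal-Retzius cells and a cluster led by mitochondrial genes were left out. Nrxn3 ran from 8.78 in the C1ql2 cluster of granule neurons to 92.8 in the Kcnmb2 cluster of interneurons in the wild-type library, and from 9.85 to 75.4 in the knock-in library. Among pyramidal clusters it was at 70.5 and 48.2 in the Nectin3 cluster, 57.8 and 45.4 in the Galntl6 cluster, 37.6 and 31.1 in the Unc5d cluster, and 30.5 and 29.7 in the Rai14 cluster. The other cluster named as interneurons, led by Lef1 and Otx2os1, had 41.4 and 43.6. Its name is less sure: the 14 interneuron markers summed to 20.6 and 26.3 there. Of these, 13 were above 0 in both libraries, with Lhx6 at 0, and Gad2 was among the cluster's leading genes. In the Kcnmb2 cluster the 14 markers summed to 159 and 160. The Lef1 cluster held 81 and 223 cells and the Kcnmb2 cluster 157 and 255. Levels and ratios of the interneuron class thus mix both clusters in shares that differ between the libraries.

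Lrrtm4 also differed among pyramidal clusters. The Galntl6 cluster, the largest of this class with 692 and 701 cells, had 1.84 and 1.32 per 10000, below the 2.86 and 3.13 of the P2ry12 microglia. The Nectin3 cluster had 8.21 and 7.36, the Unc5d cluster 19.6 and 29.2, and the Rai14 cluster 38.3 and 24.9, so that these last 2 clusters stood in opposite order in the libraries. Among the unnamed neuronal clusters, the Fn1 cluster had 60.1 and 58.8, close to the 66.7 and 57.0 of the C1ql2 granule cluster. Pyramidal neurons were thus not uniform for Lrrtm4.

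Lrrtm3 split the same neurons more sharply. It was at 0.0308 and 0.0173 in the Galntl6 cluster and 0.0305 and 0.0384 in the Nectin3 cluster. In the Rai14 cluster it was at 1.60 and 1.72, in the Unc5d cluster at 1.16 and 1.27, in the unnamed Fn1 cluster at 1.55 and 1.59, and in the unnamed Vwc2l cluster at 1.31 and 1.69. A value above 0 was found in 76.2% (66.9 to 84.0%) of wild-type and 79.5% (73.6 to 84.6%) of knock-in cells of the Rai14 cluster. In the Galntl6 cluster the shares were 2.89% (1.77 to 4.43%) and 1.71% (0.889 to 2.97%), beside 2.75% and 2.78% in the P2ry12 microglia. The median cell had 4176 and 4411 genes above 0 in the Rai14 cluster and 4142 and 4244 in the Galntl6 cluster, so depth as seen in detected genes was close.

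Nlgn1 varied less among these clusters, from 10.3 to 40.01 in wild-type and 13.7 to 35.0 in knock-in cells. It was lowest in the Rai14 cluster, where Lrrtm3 was highest, and was at 30.9 and 30.03 in the Galntl6 and 36.5 and 35.0 in the Nectin3 cluster. Pearson's r of the log2 level between wild-type and knock-in clusters was 0.97 for Nrxn3, 0.95 for Nlgn1, 0.96 for Lrrtm4 and 0.99 for Lrrtm3, as a description over the 12 clusters, each of which was defined on both libraries together. It was 0.68 for Nrxn2 and 0.36 for Lrrtm1.

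**Figure D2:**
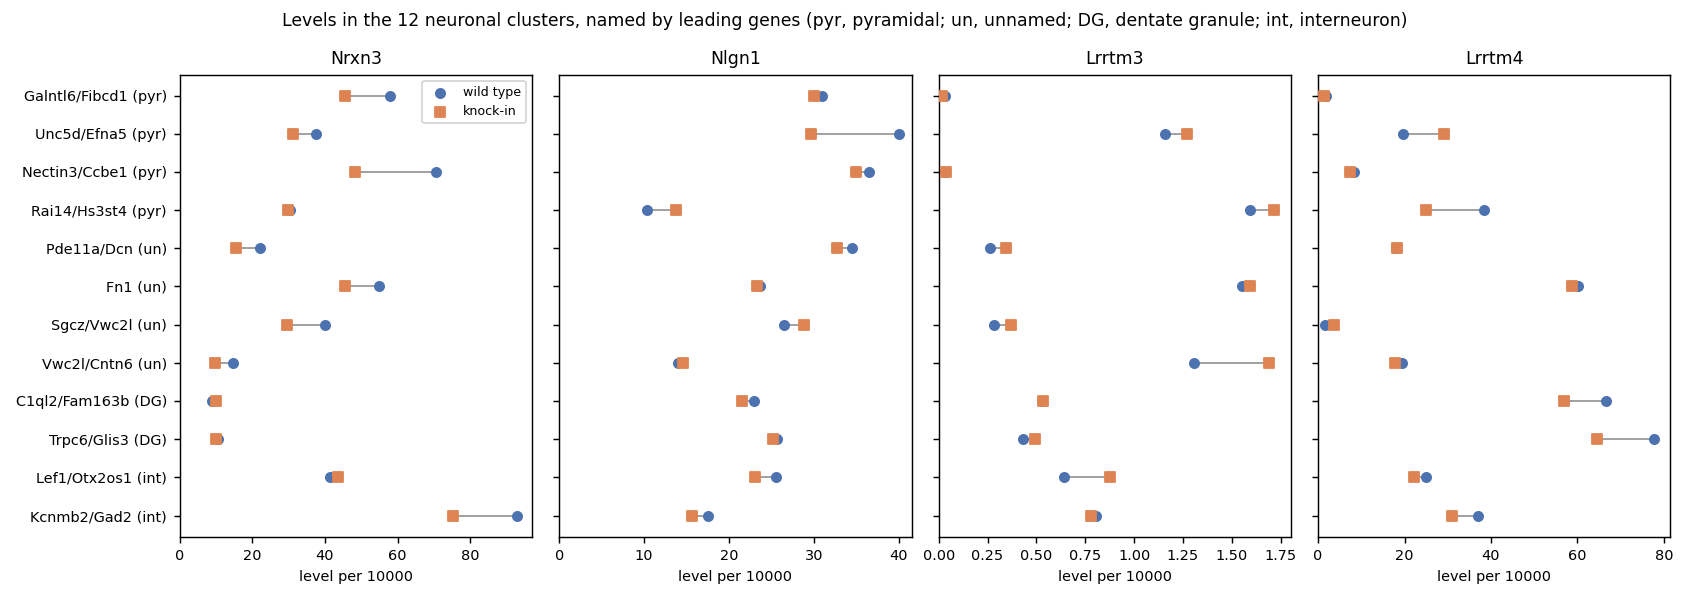
Level per 10000 (x axis, linear, from 0) of Nrxn3, Nlgn1, Lrrtm3 and Lrrtm4 in 12 neuronal clusters (y axis, named by leading genes and class), with circles for the wild-type and squares for the knock-in library and a line joining both. Lrrtm3 and Lrrtm4 are near 0 in the Galntl6 cluster, where Nrxn3 is at 57.8 and 45.4.

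Lrrtm3 lies within Ctnna3 (chromosome 10, 63430098 to 65003667, plus strand), the gene of an alpha-catenin, on the opposite strand. Lrrtm1 lies in the same way within Ctnna2 and Lrrtm2 within Ctnna1. Because the strand setting of the counting is not given in the sources used here, reads of one gene of such a pair could have been given to the other. Over the 12 neuronal clusters, log2 levels of Lrrtm3 and Ctnna3 followed each other with r of 0.99 in either library. Ctnna3 was at 8.81 and 8.03 in the Rai14 cluster, 6.89 and 5.80 in the Unc5d cluster, 0.234 and 0.160 in the Nectin3 cluster, and 0.132 and 0.150 in the Galntl6 cluster. Over all 26 clusters with at least 50 wild-type cells the r was 0.56 and 0.57. In the Anln cluster of oligodendrocytes Ctnna3 was at 25.9 and 24.3, its highest level, while Lrrtm3 was at 0.168 and 0.197. Astrocytes had 1.95 and 1.85 of Ctnna3 with 0.0405 and 0.0790 of Lrrtm3, while granule neurons had 2.25 and 1.90 of Ctnna3 with 0.435 and 0.501 of Lrrtm3. Lrrtm1 and Ctnna2 had an r of 0.33 and 0.47, and Lrrtm2 and Ctnna1 of 0.41 and 0.62, over the neuronal clusters.

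**Figure D3:**
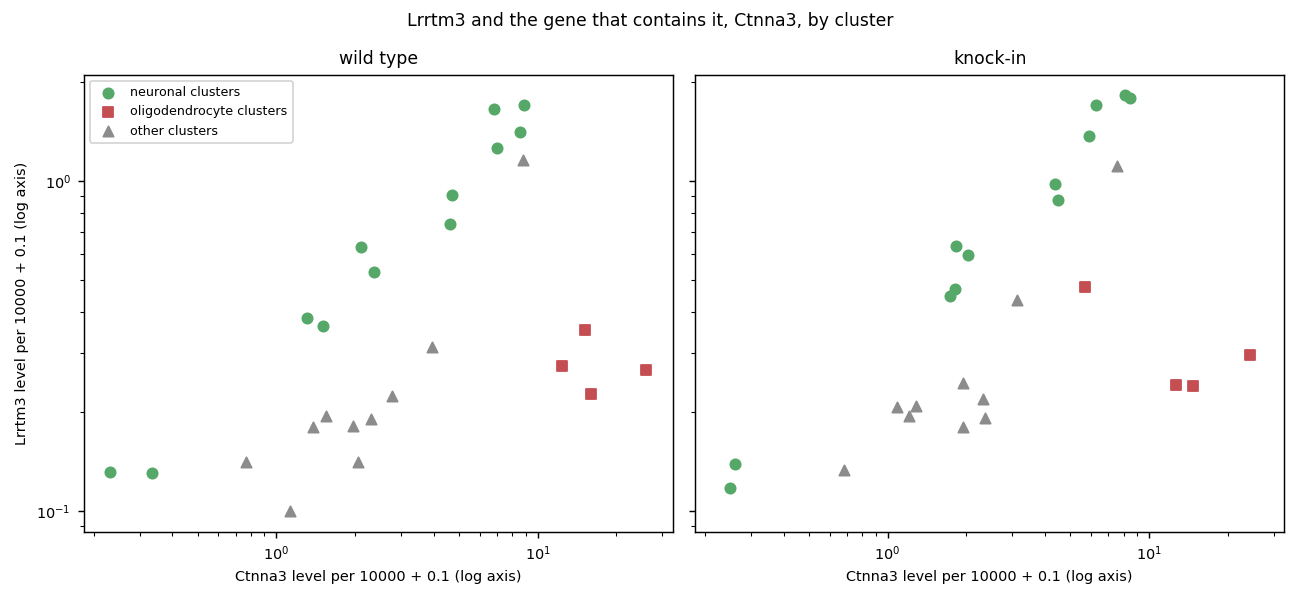
Level of Lrrtm3 against that of Ctnna3, the gene that contains it, each per 10000 with 0.1 added (log axes), in 26 clusters of the wild-type (left) and knock-in (right) library. Neuronal clusters (circles) rise together, and oligodendrocyte clusters (squares) have high Ctnna3 (25.9 and 24.3 in the Anln cluster) with low Lrrtm3 (0.168 and 0.197).

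For Nrxn3, Nlgn1 and Lrrtm4, differences between the libraries were mostly small next to the range over cell classes, which was 17.0-, 11.6- and 14.4-fold. For Lrrtm2 that range was only 3.49-fold. For each of Lrrtm1, Lrrtm2 and Lrrtm4, 8 of 10 neighbouring pairs of classes were not separated. A gene was taken as past the size rule when its level was at least 1 per 10000 in 1 library, at least 10% of that library's cells were above 0, and the log2 ratio was at least 1 in size, with 0.5 as a smaller step. Over all cells, 3 members met the limits of level and detection, and 0 of these 3 passed either step. Of all 2075 genes at the limits, 0.289% passed the step of 1 and 1.30% the step of 0.5. The log2 ratios were -0.21 for Nrxn3, -0.08 for Nlgn1 and -0.27 for Lrrtm4, against a median of -0.08 over all genes at the limits. Those of the sparse members were 0.08 for Nrxn2, 0.16 for Nlgn2, 0.16 for Lrrtm1, 0.19 for Lrrtm2 and 0.34 for Lrrtm3, at levels where a ratio rests on single units.

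In pyramidal neurons Nrxn3 had a log2 ratio of -0.49 (56.4 and 40.1 per 10000), lower than that of all but 1.02% of the 1969 genes at the limits. The ratio lay between -0.52 and -0.37 under every alternative tried. The Unc5d and Rai14 clusters held 122 and 105 of 1238 wild-type cells of the class, but 458 and 224 of 1750 knock-in cells. Nrxn3 was lower in these clusters than in the Galntl6 and Nectin3 clusters, so the class ratio also holds their shares. By cluster the Nrxn3 ratio was -0.55 in the Nectin3, -0.35 in the Galntl6, -0.27 in the Unc5d and -0.04 in the Rai14 cluster. In interneurons it was -0.31, with -0.30 in the Kcnmb2 and 0.07 in the Lef1 cluster, whose shares of the class differed between the libraries. Over the 12 neuronal clusters, Nrxn3 was lower in the knock-in library in 10, with a median log2 ratio of -0.29, and higher in the Lef1 cluster and, at 8.78 and 10.1, in the C1ql2 cluster of granule neurons. Nlgn1 and Lrrtm4 were each lower in 9 of the 12. The median over all genes at the limits was below 0 in every cluster, from -0.07 to -0.03. Clusters of the same libraries are not repeats. After thinning, Nrxn3 was above 0 in 97.0% (95.9 to 97.9%) of wild-type and 90.3% (88.9 to 91.7%) of knock-in pyramidal cells. The 192 genes of at least 500 kb at the limits had a median log2 ratio of -0.03 in pyramidal neurons, and those in interneurons one of -0.06. The part of gene length in the result was not tested.

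Lrrtm4 was lower in the knock-in library in granule neurons, by a log2 ratio of -0.28 that only 2.87% of 1988 genes at the limits undercut, and under all alternatives it was between -0.29 and -0.23. Both granule clusters had the lower level, with 77.7 and 64.6 in the Trpc6 and 66.7 and 57.0 in the C1ql2 cluster. The summed level of 11 granule markers did not have this direction: it was 50.1 and 55.8 in the Trpc6 cluster and 48.9 and 50.8 in the C1ql2 cluster. Interneurons had a ratio of -0.29, with 37.1 and 30.9 in the Kcnmb2 and 25.1 and 22.3 in the Lef1 cluster. In granule neurons 0 of 3 members at the limits passed the step of 0.5, against 1.46% of all genes, and in interneurons 0 of 3, against 3.34%.

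In pyramidal neurons the Lrrtm4 ratio was 0.65, the 1 of 3 members past the step of 0.5, which 5.33% of all genes passed. The Unc5d cluster held 122 wild-type and 458 knock-in cells, and with its clusters weighted equally the class had a ratio of 0.00, or 0.03 without the Unc5d cluster, an alternative chosen after seeing the data. With finer clusters, at resolution 2, the ratio was 0.15. By cluster, Lrrtm4 was at a log2 ratio of 0.58 in the Unc5d, -0.16 in the Nectin3, -0.45 in the Galntl6 and -0.62 in the Rai14 cluster. Equal weights gave each cluster the same share in both libraries and left the ratio within the Unc5d cluster at 0.58. In the Unc5d cluster the 11 granule markers, all above 0 in both libraries, summed to 10.6 and 16.1, and their part in the result was not tested. This sum is not specific to granule cells: it was 23.9 and 25.8 in oligodendrocyte precursors and 30.1 and 25.8 in the cluster of pericytes and smooth muscle. Lrrtm3 in pyramidal neurons, below the level limit, had a ratio of 0.85 that became 0.08 with equal weights.

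**Figure D4:**
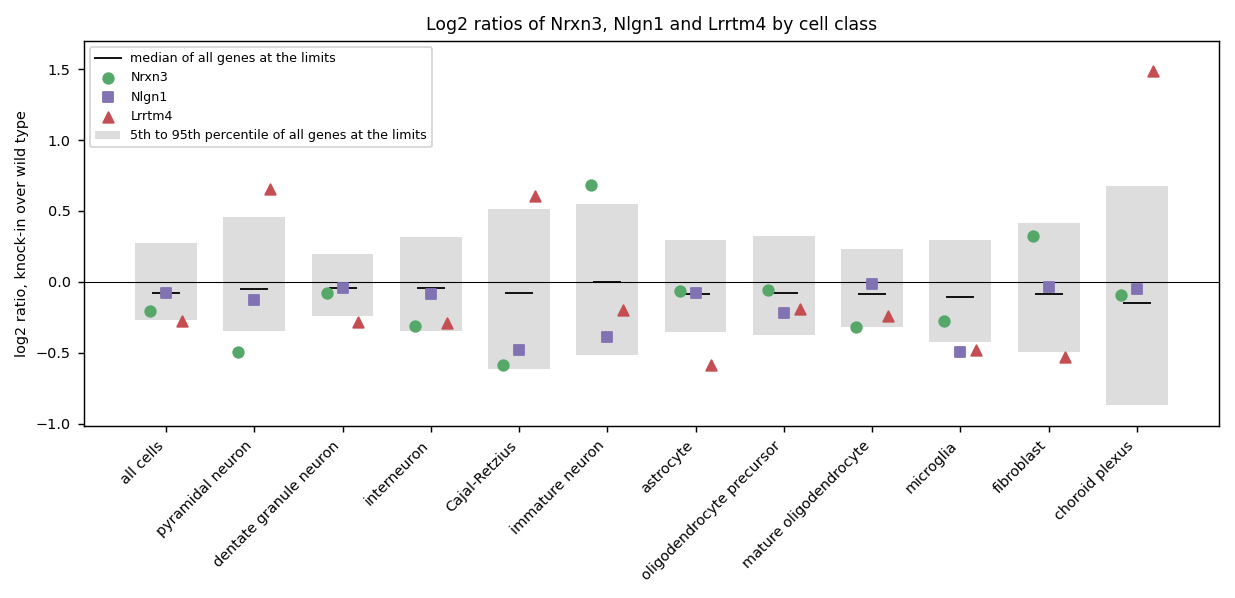
Log2 ratio of knock-in over wild-type level (y axis) for Nrxn3 (circles), Nlgn1 (squares) and Lrrtm4 (triangles) over all cells and in 11 classes (x axis). Grey bars span the 5th to 95th percentile and black dashes mark the median of all genes at the limits. Below the bars lie Nrxn3 in pyramidal neurons (-0.49), Nlgn1 in microglia (-0.49) and Lrrtm4 over all cells (-0.27), in granule neurons (-0.28), astrocytes (-0.59), microglia (-0.48) and fibroblasts (-0.53). Above them lie Nrxn3 in immature neurons (0.68) and Lrrtm4 in pyramidal neurons (0.65), Cajal-Retzius cells (0.61) and choroid plexus cells (1.48).

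Nlgn1 was lower in the knock-in library in 11 of 11 classes. In pyramidal neurons the log2 ratio was -0.13, in granule neurons -0.05 and in interneurons -0.08. Centred on the median of all genes, the ratio turned positive in 5 of these classes (granule neurons, astrocytes, mature oligodendrocytes, fibroblasts and choroid plexus cells), reaching 0.10 at most. The lowest ratio was -0.49 in microglia, where 9.32 and 6.59 per 10000 were measured. Under the alternatives tried it lay between -0.63 and -0.24. Nrxn3 was at -0.28 in microglia. It is among the 185 genes of at least 500 kb at the limits there, and its own ratio was their median, so that median is no separate comparison. Of these genes, 87.6% were lower in the knock-in library, and the part of gene length was not tested. In microglia the clusters differed more than the libraries. Nlgn1 was at 20.1 and 12.8 in the Cst3 cluster (177 and 116 cells) and 10.2 and 9.94 in the Inpp5d cluster (241 and 349 cells). In the P2ry12 cluster (255 and 396 cells) it was at 2.65 and 2.68. The class ratio holds both the difference within the Cst3 cluster and its share, 177 of 673 wild-type and 116 of 861 knock-in microglia. Among the alternatives tried was the same share of each cluster in both libraries. The 14 pyramidal markers summed to 16.7 and 15.7, 11.2 and 11.4, and 3.05 and 3.69 in these clusters, with Bok at 0 in wild-type and Tbr1 at 0 in knock-in cells of the Cst3 cluster. Their part in the result was not tested. In microglia 0 of 3 members passed the step of 0.5, against 3.13% of all genes.

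The single member past the step of 1 was Lrrtm4 in choroid plexus cells, at 2.76 and 7.89 per 10000 with a log2 ratio of 1.48. Of 2119 genes at the limits in that class, 3.73% passed this step and 36.8% the step of 0.5. In the other 10 classes 0 members passed the step of 1, which was passed by 1.73% of genes in pyramidal neurons, 0.302% in granule neurons, 0.621% in interneurons, 1.56% in Cajal-Retzius cells and 0.956% in immature neurons. Among the other classes the shares were 0.744% in astrocytes, 0.399% in oligodendrocyte precursors, 0.459% in mature oligodendrocytes, 0.371% in microglia and 0.677% in fibroblasts. The class was small, with 102 and 91 cells. Thinned shares of cells above 0 were 26.5% (18.2 to 36.1%) and 29.7% (20.5 to 40.2%), which overlap. In its Ttr cluster (62 and 70 cells) Lrrtm4 was at 4.11 and 9.40. The granule markers summed to 4.35 and 7.99 there, with C1ql3 at 0 in wild-type cells. In its Htr2c cluster (40 and 21 cells) Lrrtm4 was at 0.899 and 2.996. The same markers were there at 38.7 and 38.7, with Prox1, C1ql2 and C1ql3 at 0 in the few knock-in cells. The class ratio thus also holds the different shares of the clusters. Whether granule-cell transcripts contributed was not tested.

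Past the step of 0.5 in other classes were Lrrtm4 in astrocytes (5.88 and 3.88, ratio -0.59), in fibroblasts (9.24 and 6.38, -0.53) and in Cajal-Retzius-like cells (5.70 and 8.73, 0.61), and Nrxn3 in Cajal-Retzius cells (8.59 and 5.68, -0.59) and in immature neurons (31.5 and 50.7, 0.68). The shares of all genes past this step were 3.32% in astrocytes, 7.48% in fibroblasts, 14.9% in Cajal-Retzius cells and 11.8% in immature neurons, so ratios of this size were common in the last 2 of these classes. Cajal-Retzius cells numbered 63 and 100 and immature neurons 68 and 94. For Nrxn3 in immature neurons the thinned share of cells above 0 had the opposite direction, with intervals of 37.6 to 62.4% for wild-type and 32.4 to 53.2% for knock-in cells, and the ratio was 0.03 when clusters were built on 15 components. The 14 interneuron markers summed to 11.9 and 19.9 in those cells, with 13 above 0 and Lhx6 at 0 in both libraries. Their part was not tested. In oligodendrocyte precursors 0 of 5 members at the limits passed the step of 0.5, against 2.94% of all genes, and in mature oligodendrocytes 0 of 3, against 2.65%.

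Genes around these pairs, called partner genes here, were read from 6 lists. Beside binding and processing partners, the lists hold 27 other synaptic organizers and the 3 alpha-catenin genes that contain Lrrtm1, Lrrtm2 and Lrrtm3. Of 78 partner genes, 42 were at the limits over all cells and could pass. Of these, 0 passed the step of 1, against 0.289% of all genes at the limits. The median log2 ratio was 0.00 for 7 secreted and membrane partners of neurexins at the limits, 0.08 for 3 GPI-anchored modulators, -0.05 for 15 other synaptic organizers, -0.10 for 11 cytoplasmic partners, 0.02 for 4 genes of splicing and shedding and -0.15 for 2 alpha-catenins, beside -0.08 for all genes. Mdga2, which hinders the pairing of neuroligins with neurexins, was at 13.6 and 13.4, and Mdga1 at 0.678 and 0.728. Gpc4, the glypican ligand of Lrrtm4, was highest among the neuronal classes in granule neurons, at 2.45 and 2.60, against 0.343 and 0.310 in pyramidal neurons. In pyramidal neurons 1 of 43 partners at the limits passed the step of 1, against 1.73% of all genes: the glypican Gpc6, at 1.01 and 2.17 with a ratio of 1.03. Gpc6 was not read by cluster, and the clusters of this class had different shares in the libraries. In Cajal-Retzius cells 1 of 38 passed, against 1.56%: the glypican Gpc5, at 2.19 and 0.748 with a ratio of -1.44. Ctnna3 in pyramidal neurons, at 1.61 and 2.71, had a ratio of 0.72, while by cluster it was at -0.24 in the Unc5d, -0.36 in the Nectin3, -0.13 in the Rai14 and 0.11 in the Galntl6 cluster.

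The genes whose levels followed a member most closely over 26 clusters were sought among 7532 genes in the wild-type library, as a description. For Nrxn3 they were Rab3c, Scn1a and Nyap2, with r of 0.89, 0.88 and 0.88, and 0.88, 0.83 and 0.82 in the knock-in library. For Nlgn1 they were Dlgap1, Cadm2 and Nrcam, with r of 0.82, 0.81 and 0.81. Lrrtm4 was nearest to Cdh13, Negr1 and Shisa9, with r of 0.80, 0.77 and 0.76, and Lrrtm3 to Brinp3, Gm13052 and Cntn6, each at 0.82. Nrxn2 was nearest to Mtss1l, Sox6 and Rev3l, at 0.84, 0.79 and 0.77. Nlgn2 was nearest to Il17d, Ccdc30 and Gm26691 (0.89, 0.88 and 0.88, and 0.81, 0.81 and 0.82 in the knock-in library). Lrrtm1 was nearest to Sema4f, Fam78b and Fam171a2 (0.94, 0.93 and 0.92, and 0.75, 0.87 and 0.71 in the knock-in library). For the genes nearest to Nlgn1, Lrrtm4, Lrrtm3 and Nrxn2, the knock-in r lay between 0.74 and 0.86. The nearest to Lrrtm2 were Parm1, Las1l and Cdk5, at 0.63, 0.63 and 0.60, and 0.46, 0.45 and 0.40 in the knock-in library. Clusters share a library, and sparse genes share their dependence on detected genes per cell.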

How the data were processed

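Hippocampal cells were measured in 1 pooled droplet library per genotype, on 10x chemistry per the labels' protocols. The authors deposited a single table of whole numbers for both libraries, treated here as a depth-corrected score and not as counts, because totals per cell fill a narrow band and the deposited table's name points to depth correction. Seurat 3.0.0 and the build GRCm38 are listed in the submitters' processing notes; aligner, cell filter and doublet removal are not given in the sources used here.

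Work was done in Python 3.11.15 with igraph 0.11.9, scikit-learn 1.9.0, pandas 2.3.3, scipy 1.17.1 and numpy 2.4.6. With scanpy 1.11.5, cells were scaled to 10000, log-transformed and clustered on 2000 variable genes without the members and sex-linked genes, with 30 components, 15 neighbours and resolution 1. Clusters were named for the class with most markers, at least 3, above 0 in at least 25% of cells and at 1.5-fold the level elsewhere, and stayed unnamed where another class led or came near. Doublets were kept in the main values; Scrublet called 61 wild-type and 209 knock-in cells.

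Log2 ratios used 0.1 added to both levels. Shares have exact Clopper-Pearson 95% intervals. The level script was tested on simulated data. Named genes are the members, the 3 genes nearest to each by Pearson's r over clusters, partner genes past the size rule in a neuronal class or over all cells, and Mdga, Gpc4 and alpha-catenin genes. The partner lists held 19 neurexin partners, 6 GPI-anchored modulators, 27 other organizers, 17 cytoplasmic partners, 6 genes of splicing and shedding and 3 alpha-catenins. Members, markers, lists and the naming rule were chosen with earlier results of these data known. Gene positions are those of GENCODE M21, and promoter sequences those of RefSeq; 6 members had a window.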

Additional observations from a re-analysis of the deposited data

Results flagged for a closer look

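For Nrxn3 and Lrrtm4 the log2 ratio between the libraries had opposite signs in different cell classes. These differences between classes were not tested, since each genotype is 1 library. Nrxn3 was at 0.68 in immature neurons and -0.59 in Cajal-Retzius cells. Lrrtm4 was at 0.65 in pyramidal neurons, 0.61 in Cajal-Retzius cells and 1.48 in choroid plexus cells, but at -0.59 in astrocytes and -0.53 in fibroblasts. The Lrrtm4 ratio in pyramidal neurons was 0.00 with clusters weighted equally, and the Nrxn3 ratio in immature neurons was 0.03 with clusters built on 15 components.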

How the results depend on the processing

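No paired analysis was possible because each genotype is 1 library. Over 18 alternative settings, 1653 of 1664 log2 ratios moved by less than 1.5-fold, and no ratio past a step changed sign. Part of this was fixed in advance: a change of the minimum level cannot move a ratio. Leaving out the Unc5d or the Lef1 cluster can move ratios of its own class only. A move of less than 1.5-fold can still cross the step of 0.5, as that of Lrrtm4 in pyramidal neurons did at resolution 2. Counted as pairs of a member and a class, 1 passed the step of 1 and 7 that of 0.5, all of Nrxn3 or Lrrtm4. Only 3 to 5 members met the limits in a class, always with Nrxn3, Nlgn1 and Lrrtm4, so most sparse members could not pass. By class, 0.302% to 3.73% of all genes at the limits passed the step of 1 and 1.46% to 36.8% that of 0.5. With no minimum level, 2 and 11 pairs passed, since this admits sparse genes. With values of 1 set to 0, 5 of 8 members kept the class in which they were highest: Nlgn2 was then highest in fibroblasts, Lrrtm1 in immature neurons and Lrrtm2 in mature oligodendrocytes. Nlgn2 was also highest in fibroblasts without Scrublet cells, with totals that left out Malat1 and mitochondrial genes, and with the mean of cell shares. Settings other than that without a minimum level gave 6 to 10 pairs of a member and a class past the step of 0.5. Over all cells, 0 members and 0 partner genes passed the step of 1 throughout. Clusters made up by over 80% of 1 library numbered 0, so leaving such clusters out changed nothing, and no member became a variable gene when members were allowed. A filter on cells removed 50 cells. Leaving out the Unc5d or the Lef1 cluster was chosen after seeing the data. Depth correction by the authors limits the sparse genes Nlgn2, Lrrtm1 and Lrrtm2 most, for which a value of 1 need not be a molecule.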

Other observations

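Lrrtm4 in the Pde4b cluster of mature oligodendrocytes, with 230 wild-type and 73 knock-in cells, was at 17.1 and 34.3 per 10000. In the Anln cluster of oligodendrocytes, which stayed unnamed, it was at 4.57 and 3.72. The 11 granule markers, all above 0 in both libraries, summed to 17.4 and 32.8 in the Pde4b cluster, and their part in the result was not tested. The same sum was 23.9 and 25.8 in oligodendrocyte precursors, so it is not specific to granule cells. In the unnamed neuronal cluster led by Sgcz, Lrrtm4 was at 1.48 and 3.73, beside 2.86 and 3.13 in P2ry12 microglia. Lrrtm2 in the Rai14 cluster was at 0.231 and 0.460, its highest neuronal level in either library.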
